A study of Mus musculus with 4 samples.

Results

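Collagens are the extracellular proteins that give muscle its connective tissue sheaths, and their mRNAs were examined here in RNA from mouse skeletal muscle. Members were chosen by name and biotype, as all protein-coding genes whose symbol is Col, a number, a and a number. They numbered 39 of the 16472 genes in the deposited table, and this rule reads no measured value. By collagen type they were sorted into 8 fibrillar genes (types I, II, III, V and XI, of which the table holds types I, III, V and XI), 8 genes of basement membrane types (IV, XV and XVIII) and 23 others. Muscle of wild-type (WT) mice was fractionated, and 2 libraries were sequenced from isolated mitochondria and 2 from the second group, each from 10 ng of total RNA. The second group is called remaining tissue here, after the treatment label and the extraction protocol, but its titles and a legend of the study name total muscle, so whether whole or depleted tissue served as the reference is not settled. For these samples strain, age and sex, and whether the libraries came from separate animals, are not given in the sources used here, so p-values measure the spread between these libraries, which may be technical. Fragmentation time was adjusted for mitochondrial RNA, and any effect of it cannot be told apart from the groups. For heart mitochondria the methods of the study describe treatment with digitonin and RNase A, and whether muscle mitochondria were treated alike is not stated.

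Collagen chains are made by fibroblasts and other cells on ribosomes bound to the endoplasmic reticulum, where proline and lysine residues are hydroxylated and chains assemble into a triple helix. The helix is built of triplets that begin with glycine, and so the coding sequence repeats a glycine codon (GGN) once in each triplet of codons. Fibrillar collagens are trimmed outside the cell and pack into the tensile fibrils of the perimysium and endomysium, type IV forms the network of the basement membrane that surrounds each myofibre and capillary, and type VI forms beaded filaments that link this membrane to the matrix.

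This codon repeat is shown in 1 coding exon for each of 8 members that the results turn on, read 5′ to 3′ on the strand of the gene from the reference genome (GRCm38, GENCODE M21). Capitals mark the GGN codons of the repeat in the reading frame.
Col1a1, chr11:94939904-94939957, plus strand, exon 8 of 51: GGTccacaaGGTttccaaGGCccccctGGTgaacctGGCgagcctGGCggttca
Col3a1, chr1:45325360-45325413, plus strand, exon 6 of 51: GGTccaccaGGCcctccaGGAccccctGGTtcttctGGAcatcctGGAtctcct
Col5a1, chr2:27965251-27965304, plus strand, exon 15 of 66: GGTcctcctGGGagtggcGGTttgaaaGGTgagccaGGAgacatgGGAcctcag
Col4a1, chr8:11245211-11245264, minus strand, exon 7 of 52: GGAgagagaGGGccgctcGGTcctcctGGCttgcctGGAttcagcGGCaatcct
Col4a2, chr8:11431240-11431401, plus strand, exon 30 of 48: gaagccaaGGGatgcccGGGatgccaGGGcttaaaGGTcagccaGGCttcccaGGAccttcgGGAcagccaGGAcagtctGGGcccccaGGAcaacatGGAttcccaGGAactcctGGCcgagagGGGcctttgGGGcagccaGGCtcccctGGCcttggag
Col6a1, chr10:76719623-76719676, minus strand, exon 9 of 35: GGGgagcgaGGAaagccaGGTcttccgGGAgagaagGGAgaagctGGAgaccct
Col12a1, chr9:79612916-79612969, minus strand, exon 57 of 66: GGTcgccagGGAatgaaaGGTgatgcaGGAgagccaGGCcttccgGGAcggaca
Col22a1, chr15:71857251-71857304, minus strand, exon 46 of 64: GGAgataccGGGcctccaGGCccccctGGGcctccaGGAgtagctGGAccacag

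The exons of 54 bases begin on a glycine codon and hold 6 repeats, whereas the exon of 162 bases of Col4a2 begins inside a codon and holds 17. Across the family, the longest unbroken run of repeats set the fibrillar genes apart. It was 337 to 344 repeats in the 8 fibrillar genes, 30 to 66 in the basement membrane genes (median 41) and 23 to 217 in the others (median 57), and the ranges of these types overlapped. The longest runs among the others belonged to Col24a1 (216) and Col27a1 (217), which code for fibril-forming chains by structure although the type numbers place them outside the fibrillar set used here. Exons that begin on a whole codon made up a median of 93.9% of the wholly coding exons in fibrillar genes and 47.5% in basement membrane genes. These features describe the genes and were not read from the libraries.

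Most collagen mRNAs stood higher in isolated mitochondria than in remaining tissue, relative to the median nuclear gene. Of the 39 members, 24 had a mean of at least 20 normalized counts (counts divided by a size factor for each library) over the 4 libraries and were tested. Of these, 19 were higher in isolated mitochondria at an adjusted p under 0.05 (limma with Benjamini-Hochberg adjustment over all 6916 genes tested), where 7.32% of all tested genes were called higher. The 19 were 6 of 7 fibrillar, 6 of 7 basement membrane and 7 of 10 other collagens tested. None was called lower by limma, against 9.3% of all tested genes. At an unadjusted p under 0.05, 21 were higher and Col22a1 was lower, and Col22a1 was also the 1 collagen called lower by edgeR with the deposited size factors. The groups did not overlap in 22 members that were higher and 1 that was lower, against 25.5% and 43.7% of all tested genes. A member that reached the minimum mean only through isolated mitochondria had to differ, as holds for 7 of those tested (Col11a2, Col4a3, Col4a4, Col4a5, Col16a1, Col23a1 and Col27a1). The 18 members with a mean of at least 20 in remaining tissue, Col7a1 included, were therefore counted as well, and 15 of them were called higher, against 4.25% of the 6500 genes at that level.

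The median log2 fold change of the 24 tested members was 2.98, where the median of all tested genes was -0.44. It was 3.03 in fibrillar, 2.97 in basement membrane and 2.83 in other collagens, and differences between the types were not tested. Among members with a mean of at least 20 in remaining tissue, the medians in this order of types were 3.05, 2.98 and 2.64. With all members and no minimum they were 3.02, 2.86 and 1.83, so the value of the other collagens depended most on the filter. These values hold for the deposited scaling by size factors. When the libraries were scaled to the total of all genes instead, of which the mitochondrial genome took 94.1% to 95.3% in isolated mitochondria, the median of all tested genes fell to -6.90 and all 24 collagens were lower, 3.02 above that median on the log2 scale. Under the other settings the collagen median stood 2.95 to 3.75 above the median of all genes. Directions of log2 fold changes below are therefore relative to the median nuclear gene, unless another scaling is named. The mitochondrial libraries also held few reads on protein-coding genes outside the mitochondrial genome, 90821 and 156292 against an estimated 10813923 and 10591573 in remaining tissue. These were a small part of the 2019895 and 2077777 reads outside the mitochondrial genome in isolated mitochondria. Remaining tissue had an estimated 12199031 and 12158591 such reads.

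**Figure D1:**
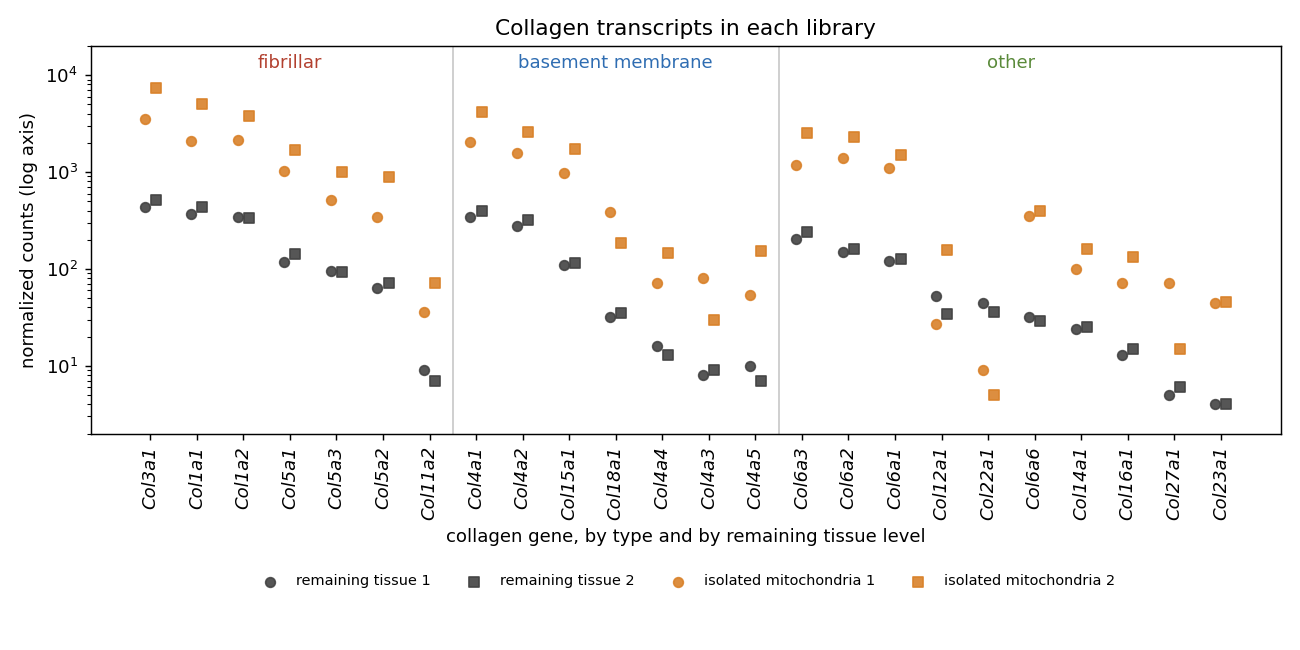
Normalized counts (log axis) of the 24 tested collagens in each of the 4 libraries, ordered by type and by level in remaining tissue; each point is 1 library. Both libraries of isolated mitochondria lie above both of remaining tissue for every gene shown except Col12a1, where the groups overlap, and Col22a1, where they lie below.

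Col3a1 and Col1a1 had the highest normalized counts of the family, not corrected for gene length. Col3a1, which forms type III collagen of reticular fibres (chr1:45311538-45349706), had 437 and 514 normalized counts in the libraries of remaining tissue and 3511 and 7351 in those of isolated mitochondria, the latter from 388 and 1453 reads. Its log2 fold change was 3.42 (SE 0.41, adjusted p = 0.0197 with limma). Type I collagen forms the main tensile fibril. Col1a1 (chr11:94936224-94953042) had 368 and 434 normalized counts in remaining tissue and 2108 and 5074 in isolated mitochondria, and its log2 fold change was 3.03 (SE 0.47, adjusted p = 0.0292 with limma, and up to 0.0593 in 3 alternatives where it did not pass). Col1a2 had 346 and 332 against 2136 and 3794 normalized counts (log2 fold change 3.07, SE 0.33, adjusted p = 0.0164 with limma). For each of these 3 genes the lower mitochondrial library exceeded the higher library of remaining tissue, and the second mitochondrial library was the higher one.

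Type V collagen sits inside type I fibrils and limits their diameter. Col5a1, a chain found in nearly all type V molecules, had 119 and 142 normalized counts in remaining tissue and 1013 and 1705 in isolated mitochondria (log2 fold change 3.33, SE 0.32, adjusted p = 0.0144 with limma). Col5a3 had 95 and 93 against 516 and 1002 normalized counts, and Col5a2 had 64 and 71 against 344 and 890. Their log2 fold changes were 2.92 and 3.02, and both passed the test without overlap of the groups. Type XI chains are the cartilage counterparts of type V and were near the limit of detection. Col11a2 had 9 and 7 normalized counts in remaining tissue and 36 and 71 in isolated mitochondria, which rest on 4 and 14 reads, and its log2 fold change of 2.53 did not pass (adjusted p = 0.0562 with limma). Col11a1 had 7 and 8 against 18 and 10 normalized counts and was below the minimum mean.

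Among basement membrane collagens, the chains of the common type IV network had the highest levels, also per kilobase of exon. Col4a1 had 340 and 396 normalized counts in remaining tissue and 2054 and 4133 in isolated mitochondria (log2 fold change 2.99, SE 0.39, adjusted p = 0.0225 with limma). Col4a2, its partner in the trimer, had 275 and 323 against 1556 and 2611 normalized counts (log2 fold change 2.75, SE 0.31, adjusted p = 0.0187 with limma). The groups did not overlap for either chain. The genes lie head to head on chromosome 8 (Col4a1 chr8:11198423-11312826, Col4a2 chr8:11312805-11449287) and overlap by 22 bases at their starts.

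The restricted type IV chains were low in muscle. Col4a4 had 16 and 13 normalized counts in remaining tissue and 72 and 147 in isolated mitochondria, and Col4a5 had 10 and 7 against 54 and 152. Both were called higher, with log2 fold changes of 2.75 and 3.29. Col4a3 had 8 and 9 against 81 and 30 normalized counts, did not overlap between groups, and missed the threshold (log2 fold change 2.41, adjusted p = 0.0816 with limma). Col4a6 was below the minimum mean, with 1 and 2 normalized counts in remaining tissue and 9 and 20 in isolated mitochondria.

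Types XV and XVIII are proteoglycan-like collagens that attach basement membranes to the matrix around them. Col15a1, abundant around myofibres and capillaries, had 111 and 115 normalized counts in remaining tissue and 968 and 1740 in isolated mitochondria, the highest log2 fold change of the basement membrane set (3.51, SE 0.34, adjusted p = 0.0144 with limma). Col18a1, the precursor of endostatin, had 32 and 35 against 389 and 187 normalized counts (log2 fold change 2.97, SE 0.43, adjusted p = 0.0253 with limma). In contrast to most members, Col18a1 and Col4a3 were higher in the first than in the second mitochondrial library.

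Of the other collagens, the chains of type VI collagen held the most reads. Col6a1 had 122 and 128 normalized counts in remaining tissue and 1095 and 1492 in isolated mitochondria (log2 fold change 3.34, SE 0.23, adjusted p = 0.00822 with limma). Col6a2 had 149 and 160 against 1394 and 2277 normalized counts (log2 fold change 3.52, SE 0.30, adjusted p = 0.0114 with limma), and Col6a3 had 205 and 242 against 1194 and 2504 (log2 fold change 2.95, SE 0.41, adjusted p = 0.0242 with limma). These 3 chains assemble into the common type VI molecule, and each passed without overlap of the groups. Col6a6, a chain that can take the place of the Col6a3 product, had 32 and 29 normalized counts in remaining tissue and 353 and 400 in isolated mitochondria. Its log2 fold change of 3.58 (SE 0.22, adjusted p = 0.00780 with limma) was the highest among the tested members. Col6a6 shares a near-identical stretch of 572 nt (at least 95% identity) with Col6a5, which had 2 and 2 against 18 and 5 normalized counts, and per the methods of the study reads that align to several places were left out, so the counts of these neighbours on chromosome 9 may be too low.

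Fibril-associated collagens bind to the surface of fibrils, and the calls of the tested members were mixed. Col14a1, which binds type I fibrils in tendon and muscle sheaths, had 24 and 25 normalized counts in remaining tissue and 100 and 162 in isolated mitochondria (log2 fold change 2.33, SE 0.34, adjusted p = 0.0265 with limma). Col16a1 had 13 and 15 against 72 and 132 normalized counts and was called higher with a log2 fold change of 2.72. Col12a1, which is found in dense connective tissue such as fascia and tendon, did not differ beyond the spread between libraries. It had 53 and 34 normalized counts in remaining tissue and 27 and 157 in isolated mitochondria, from 3 and 31 reads, and its log2 fold change was 0.61 (SE 0.93, adjusted p = 0.654 with limma). Without the second mitochondrial library its value turned to -0.63.

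Col22a1, which codes for the collagen of the myotendinous junction (chr15:71795795-72034227), was the tested member whose values lay on the other side. It had 44 and 36 normalized counts in remaining tissue and 9 and 5 in isolated mitochondria, the value of a single read in each. Both mitochondrial libraries lay below both of remaining tissue, but the log2 fold change of -2.40 (SE 0.61) did not pass (adjusted p = 0.072 with limma). From the 2 reads, where 12.3 would be found at the level of remaining tissue, the ratio was 0.162 (95% exact Poisson interval 0.0196 to 0.586, counting error only). Col7a1, the collagen of anchoring fibrils, was below the minimum mean and had 28 and 19 normalized counts against 9 and 0. Its single read, where 7.24 would be found at the level of remaining tissue, gave a ratio of 0.138 (0.00350 to 0.769). Such ratios were computed only for members with a mean of at least 20 in remaining tissue and at most 3 reads in isolated mitochondria. Low ratios were therefore set by this choice, and the intervals give no support for a decrease.

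The rest of the tested members were a transmembrane and a fibril-forming collagen. Col23a1, the transmembrane one, had 4 and 4 normalized counts in remaining tissue and 45 and 46 in isolated mitochondria, from 5 and 9 reads, and was called higher (log2 fold change 3.22, adjusted p = 0.0480 with limma). It did not pass when either library of remaining tissue was left out (adjusted p = 0.325 and 0.322 with limma). Col27a1, the fibril-forming one, had 5 and 6 against 72 and 15 normalized counts and did not pass (log2 fold change 2.40, adjusted p = 0.176 with limma). Both entered the test only through isolated mitochondria.

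**Figure D2:**
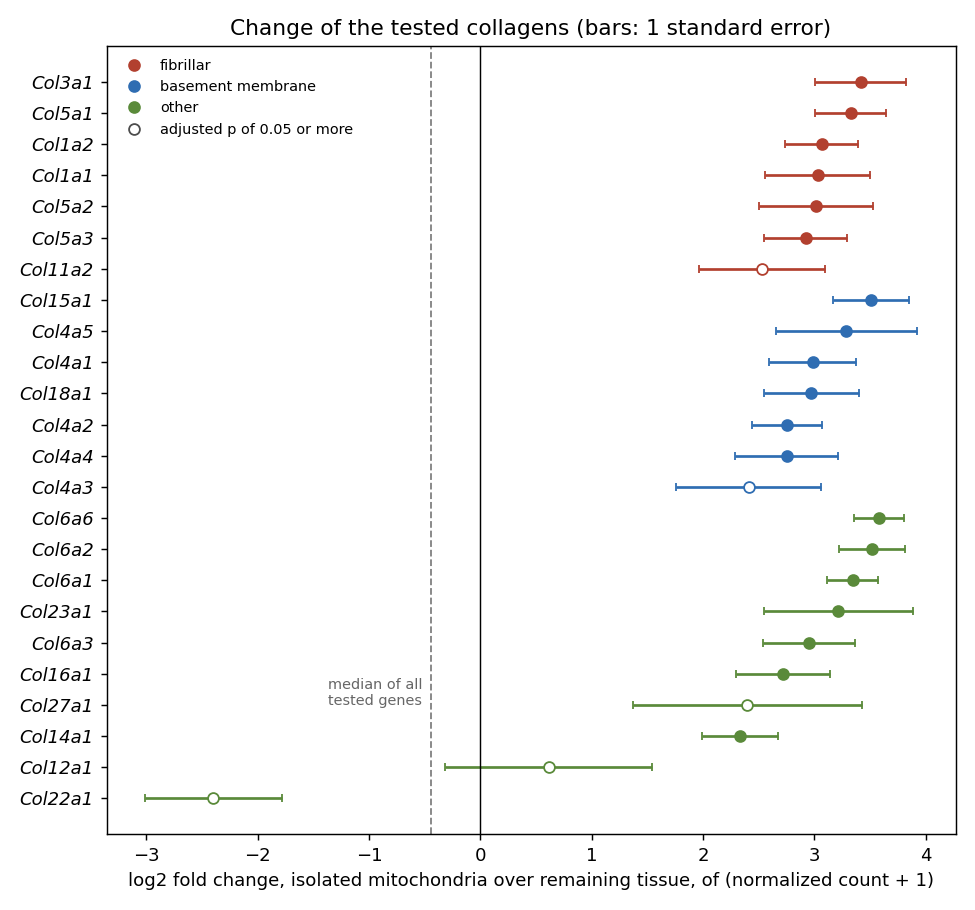
Log2 fold change of each tested collagen, isolated mitochondria over remaining tissue, on the scale of log2(normalized count + 1); points are limma estimates from 2 against 2 libraries, bars are 1 standard error and open points did not pass. Apart from Col12a1 and Col22a1, all points lie between 2.33 and 3.58, well to the right of the dashed line at the median of all tested genes (-0.44). Col11a2, Col4a3, Col4a4, Col4a5, Col16a1, Col23a1 and Col27a1 entered the test only through isolated mitochondria, so their mean normalized count had to be higher there.

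Of the 15 members below the minimum mean, 13 belong to the other collagens, and Col11a1, Col4a6 and Col7a1 among the 15 were given above. Col24a1 had 11 and 10 normalized counts in remaining tissue, Col19a1 and Col20a1 had 6 and 5 each, Col9a3 had 0 and 1, and all 4 had no read in either mitochondrial library. The limit of 3 reads corresponds to 27.1 and 15.2 normalized counts in the mitochondrial libraries, above these levels, so a difference was not detectable at this depth. Transcripts at such levels could not be told from absent ones in isolated mitochondria. Col8a1 and Col8a2, short-chain collagens of vessel walls and eye, had 8 and 6, and 4 and 3 normalized counts in remaining tissue, against 9 and 56, and 0 and 15 in isolated mitochondria. Col13a1, a transmembrane collagen of the neuromuscular junction, had 4 and 3 against 18 and 46. Col9a1, Col9a2, Col26a1, Col28a1 and Col6a5 had 0 to 2 normalized counts in each library of remaining tissue and 0 to 45 in isolated mitochondria. With all 39 members included and no minimum, the median log2 fold change was 2.74.

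The order of levels within the family was much alike in both fractions. Per kilobase of exon, Col1a1, Col4a1 and Col3a1 had the highest means in remaining tissue (61.1, 49.3 and 48.4 normalized counts per kilobase), and Col3a1, Col1a1 and Col4a1 had the highest in isolated mitochondria (553, 547 and 414). Within single libraries, Col3a1 stood at 0.794 and 0.792 times the level of Col1a1 per kilobase in remaining tissue. In isolated mitochondria it stood at 1.11 and 0.969 times, so the order of these genes differed between the mitochondrial libraries. Other differences in order were not tested. Across 39 members, levels per kilobase in the fractions had a Spearman coefficient of 0.787, and across the 18 with a mean of at least 20 in remaining tissue 0.961; genes are not independent replicates, and these points share their libraries. Across the same 18, the log2 fold change had a Spearman coefficient of -0.23 with exon length and 0.20 with the longest run of GGN repeats.

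To put the family on a scale that needs no size factor, its reads were divided by all reads of protein-coding genes outside the mitochondrial genome. Collagens took 0.193% of these reads (95% Wilson interval 0.190 to 0.196) and 0.215% (0.213 to 0.218) in remaining tissue, and 2.35% (2.26 to 2.45) and 4.59% (4.49 to 4.70) in isolated mitochondria. On this total, every mitochondrial library lay above every library of remaining tissue. Means over the libraries were 0.204% ± 0.0159 for remaining tissue and 3.47% ± 1.58 for isolated mitochondria (SD, n = 2 each), and single libraries of the latter held 10.9 to 23.8 times the share of those of the former. With reads per kilobase of exon, the shares were 0.119% and 1.02%, a ratio of 8.54 where reads gave 17. A share also depends on the other genes in its total. Of all reads outside the mitochondrial genome, collagens held an estimated 20869 of 12199031 and 22821 of 12158591 in remaining tissue. Collagens held 2137 of 2019895 and 7174 of 2077777 in isolated mitochondria. On this wider total the groups overlapped, with the first mitochondrial library below both of remaining tissue and the second above both. The 10 myofibre markers held an estimated 3785796 and 3648402 of 10813923 and 10591573 reads in remaining tissue. In isolated mitochondria they held 7553 of 90821 and 11967 of 156292, and how far this moved the collagen share was not tested. Another gene of the protein-coding total, Gm20594, held 11766 and 7889 reads in isolated mitochondria, against an estimated 1924 and 1734 in remaining tissue. Intervals cover counting error only, and with 2 libraries against 2 an exact two-sided permutation p cannot go below 1 in 3, so none was computed.

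Within the family, the types kept similar shares. Fibrillar genes held 48.8% and 49.4% of collagen reads in remaining tissue and 50.1% and 54.8% in isolated mitochondria. Basement membrane genes held 26.8% and 27.8% against 26.8% and 24.9%, and other collagens 24.4% and 22.8% against 23.1% and 20.3%. For each type, the first mitochondrial library lay within or close to the range of remaining tissue and the second stood further off.

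**Figure D3:**
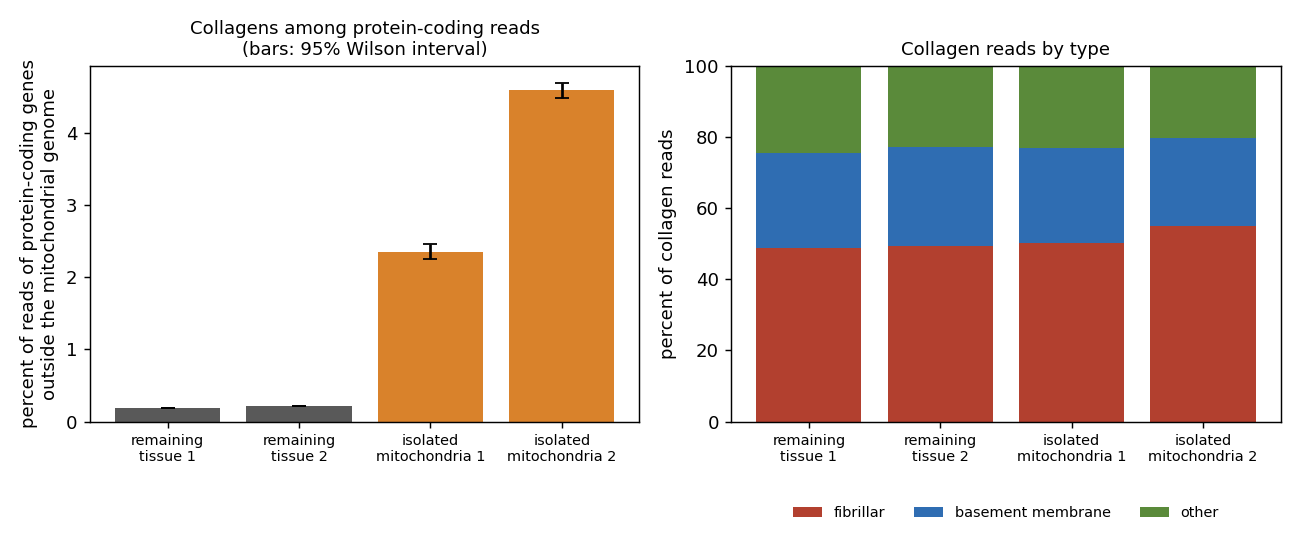
Left, collagen reads as a percentage of reads of protein-coding genes outside the mitochondrial genome in each library, with 95% Wilson intervals; right, the split of collagen reads by type. The left bars rise from 0.193% and 0.215% in remaining tissue to 2.35% and 4.59% in isolated mitochondria, while fibrillar genes hold 48.8% to 54.8% of collagen reads in all 4 libraries.

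Chains that assemble together were compared within each library, where scaling cancels. Col1a1 took 51.5% and 56.7% of the reads of Col1a1 and Col1a2 in remaining tissue and 49.7% and 57.2% in isolated mitochondria, so the fractions overlapped. Col4a1 took 55.3% and 55.1% of the reads of Col4a1 and Col4a2 in remaining tissue, and 56.9% (95% Wilson interval 52.0 to 61.7) and 61.3% (58.6 to 63.9) in isolated mitochondria. Col6a1 took 45% and 44.4% of the reads of Col6a1 and Col6a2 against 44.0% and 39.6%. Of reads on Col3a1 and Col1a1, which share fibrils, Col3a1 took 54.3% and 54.2% in remaining tissue. In isolated mitochondria Col3a1 took 62.5% (58.6 to 66.2) and 59.2% (57.2 to 61.1). The groups did not overlap for this pair, nor for Col4a1 with Col4a2 or Col6a1 with Col6a2. Among further pairs computed, Col6a3 with Col6a1 also did not overlap, whereas Col5a1 with Col5a2, Col4a3 with Col4a4 and Col4a5 with Col4a6 did. With 2 libraries against 2, groups often separate by chance, so no difference is concluded from the lack of overlap.

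The members share some neighbourhoods. Besides Col4a1 and Col4a2, Col4a3 and Col4a4 lie head to head with a gap of 71 bases, Col4a5 and Col4a6 with 1308 bases, and Col3a1 and Col5a2 tail to tail with 24614 bases. Several members overlap an exon of another gene on the opposite strand, among them Col15a1, Col22a1, Col4a3, Col5a1 and Col6a6, and Col3a1 overlaps Gm47302 on its own strand. Per the methods of the study, reads that overlap several genes were left out, but whether strand was used is not stated, so the counts of these genes are uncertain over the shared parts. Transcripts of Col22a1 and Col6a6 also hold short stretches shared with 898 and 838 other genes (at least 50 nt and 95% identity, up to 67 nt in Col22a1).

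The mitochondrial libraries differed from each other, and for collagens by more than at the median of other genes; this contrast was not tested. Of the 39 members, 27 were higher in the second mitochondrial library, 8 were lower and 4 were equal. Among members with a mean of at least 20 in remaining tissue, the median log2 ratio of the second to the first library was 0.79 in isolated mitochondria, where it was 0.18 for the 6500 genes at that level, and 0.0854 in remaining tissue. When the first mitochondrial library was left out, the median log2 fold change of the tested collagens was 3.44, and without the second it was 2.52. In such fits the lone library is assumed to vary like those of the other group.

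The machinery that makes, processes, binds and degrades collagen was followed through 48 genes of the table, of which 32 were tested. Of these, 11 were higher (7.32% of all tested genes were) and none was lower by limma (9.3%), where 1 (Mia3) was lower at an unadjusted p under 0.05 and 1 each by edgeR with the deposited size factors and by DESeq2. Their median log2 fold change was 1.47, below the 2.98 of the collagens; the difference was not tested. P3h3 and Itga11 were among the 11 and reached the minimum mean only through isolated mitochondria, and of the 25 genes with a mean of at least 20 in remaining tissue 9 were higher (4.25% of all genes at that level). Without the first or the second mitochondrial library, 22 or 21 were called higher (24.9% and 23.8% of all tested genes), and 4 were when either library of remaining tissue was left out (4.28% and 4.53%).

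Of 15 tested genes for chain modification and folding, 3 were higher, and the median log2 fold change was 1.07. P4hb, the beta subunit of prolyl 4-hydroxylase, had 227 and 217 normalized counts in remaining tissue and 461 and 450 in isolated mitochondria (log2 fold change 1.03, SE 0.17, adjusted p = 0.0333 with limma). Ppib, the prolyl isomerase cyclophilin B, had 27 and 23 against 172 and 101 normalized counts, and P3h3, a prolyl 3-hydroxylase family member, had 9 and 8 against 45 and 66, with log2 fold changes of 2.36 and 2.55. Mia3 codes for TANGO1, which loads procollagen at exit sites of the endoplasmic reticulum. It had 360 and 343 normalized counts in remaining tissue and 208 and 152 in isolated mitochondria and did not pass (log2 fold change -0.98, adjusted p = 0.0649 with limma).

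Procollagen processing and cross-linking held 6 tested genes, of which 3 were higher (median log2 fold change 1.98). Pcolce, an enhancer of the C-propeptidase, had 38 and 37 normalized counts in remaining tissue and 190 and 430 in isolated mitochondria, and Adamts2, the N-propeptidase, had 28 and 24 against 145 and 223. Bmp1, the C-propeptidase itself, had 32 and 35 against 136 and 132. The log2 fold changes of these secreted factors were 2.90, 2.75 and 1.97, all without overlap of the groups.

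Among 5 tested collagen receptors, 2 were higher (median log2 fold change 2.16). Ddr2, a receptor tyrosine kinase for fibrillar collagen, had 56 and 64 normalized counts in remaining tissue and 199 and 395 in isolated mitochondria, and Itga11, an integrin alpha chain of fibroblasts, had 17 and 12 against 81 and 56. Their log2 fold changes were 2.21 and 2.16. Itgb1, the beta chain shared by the collagen-binding integrins and made in many cell types, had 265 and 271 against 290 and 283 normalized counts (log2 fold change 0.10, adjusted p = 0.712 with limma).

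Of 6 tested genes for collagen degradation and its inhibition, 3 were higher (median log2 fold change 1.72). Mmp2, gelatinase A, had 81 and 78 normalized counts in remaining tissue and 371 and 668 in isolated mitochondria. Mmp14, the membrane protease that activates it, had 20 and 24 against 109 and 76, and Timp2, an inhibitor that takes part in this activation, had 128 and 129 against 290 and 415. Their log2 fold changes were 2.63, 2.01 and 1.43.

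Genes of other matrix proteins were counted beside them. Of 12 tested laminins and basement membrane linkers, 8 were higher (median log2 fold change 2.07), and of 9 tested small leucine-rich proteoglycans, which coat collagen fibrils, 4 were higher (median 1.91). Of all tested genes, 7.32% were higher. Lamc3, among the 8, entered the test only through isolated mitochondria. With a mean of at least 20 in remaining tissue, 7 of 11 genes of the first list (median 1.94) and 4 of 8 of the second (median 1.86) were higher, against 4.25% of all genes at that level. Perlecan (Hspg2), the gene of the first list with the highest mean normalized count, had 746 and 802 normalized counts in remaining tissue and 2868 and 4356 in isolated mitochondria, and decorin (Dcn), that of the second, had 326 and 300 against 1909 and 1852. Chaperones and translocon parts of the endoplasmic reticulum, which serve secreted proteins of all cells, had 4 of 19 tested genes higher and a median of 0.18.

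**Figure D4:**
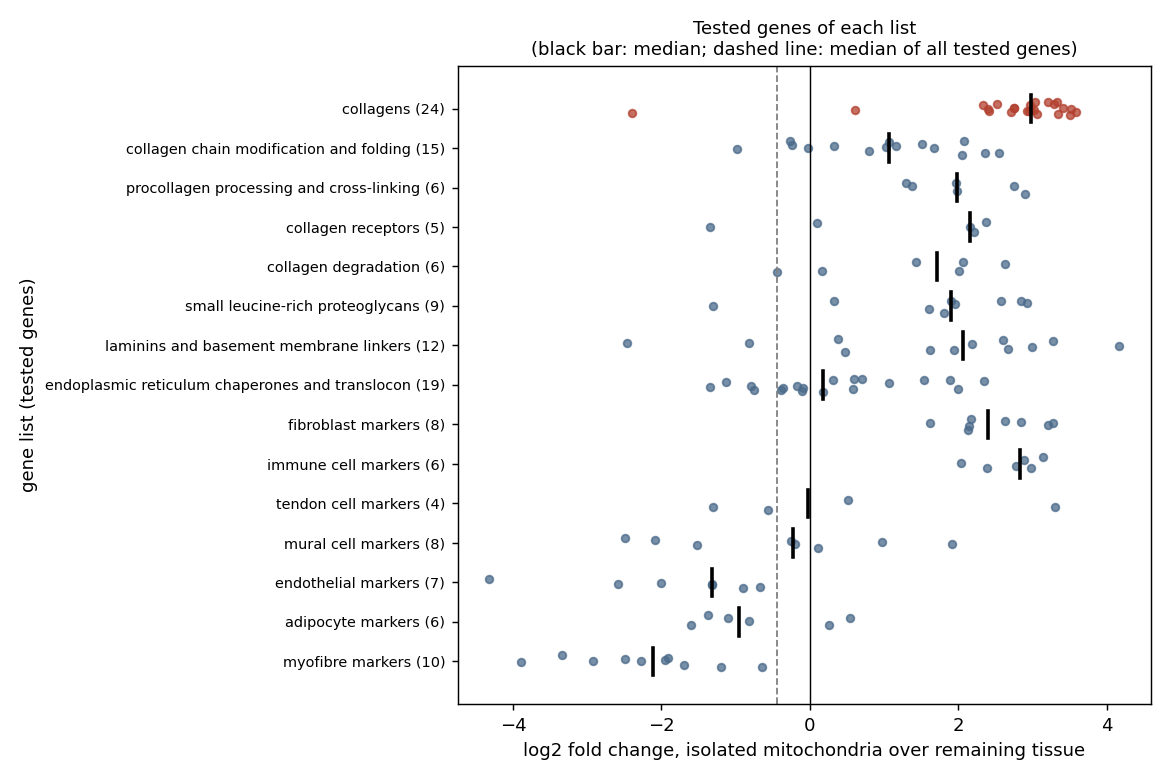
Log2 fold changes of the tested genes of each list, isolated mitochondria over remaining tissue; points are genes, black bars are medians, the dashed line is the median of all tested genes (-0.44) and the number of tested genes stands in brackets. Collagens have the highest median (2.98) of the lists shown, followed by immune cell markers (2.83) and fibroblast markers (2.40). Myofibre markers lie at -2.11. Some tested genes reached the minimum mean only through isolated mitochondria. Among genes with a mean of at least 20 in remaining tissue, collagens again have the highest median. Fibroblast markers (2.63) then lie above immune cell markers (2.58, from 2 genes).

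Markers of the cell types in muscle were counted in the same libraries, where 7.32% of all tested genes were called higher and 9.3% lower. Myofibre markers were present, as the tissue label calls for, and summed to 537067 and 517576 normalized counts in remaining tissue and 68347 and 60542 in isolated mitochondria, where 9 of 10 were lower. Fibroblast markers had 6 of 8 tested genes higher, and their 10 listed genes summed to 1698 and 1734 against 12786 and 16948 normalized counts, mostly Gsn, which myofibres also express. None of the 10 was at 0 in both mitochondrial libraries. Immune cell markers had 5 of 6 tested genes higher, with sums of 119 and 145 against 704 and 976, but Adgre1, C1qb and C1qc entered the test only through isolated mitochondria, and 2 markers (both higher) had a mean of at least 20 in remaining tissue.

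The other lists had at most 1 gene called higher. In lists this short, 1 called gene cannot be told from the shares over all tested genes. Endothelial markers had 1 of 7 tested genes lower (median log2 fold change -1.32) and sums of 657 and 699 against 189 and 211 normalized counts, with Cldn5 and Emcn at 0 in both mitochondrial libraries. Mural cell markers had 1 of 8 tested genes higher and 1 lower (sums of 1241 and 1127 against 670 and 703), and tendon cell markers 1 of 4 higher (Scx, which entered the test only through isolated mitochondria), with Mkx at 0 in both mitochondrial libraries (sums of 489 and 350 against 252 and 541). Adipocyte markers had 2 of 6 tested genes lower (sums of 1366 and 2650 against 1592 and 1249), with Lep and Retn at 0 in both mitochondrial libraries. Outside the marker lists, cytosolic proteins of cells other than myofibres had 5 of 18 tested genes higher (median 1.61). Of the 5, S100a11 and Tmsb10 entered the test only through isolated mitochondria. Among 13 of these genes with a mean of at least 20 in remaining tissue, 3 were higher (median 1.44), against 4.25% of all genes at that level. The part of these cell types in the collagen values was not tested. In such bulk libraries, fewer cells of a type and less RNA per cell cannot be told apart.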

How the data were processed

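RNA of mouse skeletal muscle was sequenced in 4 libraries. Per the submitters' processing notes, the authors used Trimmomatic 0.39 for trimming, STAR 2.7.10a for alignment to mm10 (GRCm38), featureCounts 2.0.2 for counts per gene and DESeq2 1.30.1 for the comparison of groups; the methods of the study name the same tools but other versions of the last 3, and state that reads overlapping several genes or aligning to several places were left out. The strand setting of the counting is not given in the sources used here. What they deposited is a signal, namely counts per gene divided by size factors and rounded, here called normalized counts.

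In isolated mitochondria 1 read was worth 9.05 or 5.06 normalized counts in replicates 1 and 2. All 10508 and 11660 values under 2000 were whole reads within rounding, which gave 42750347 and 35305307 reads. In remaining tissue reads were estimated at 7.05 per normalized count (15702413 and 15300272 reads). Of the gene IDs, 16457 were found in GENCODE M21.

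Genes with a mean of at least 20 entered a two-sided limma fit (3.58.1, R 4.3.3, eBayes with trend) of log2(normalized count + 1), with Benjamini-Hochberg adjustment over all of them. The threshold was 0.05. Log2 fold changes keep the pseudocount of 1 and understate changes of low genes. Shares have 95% Wilson intervals, which cover counting error only since the reads carry no molecular identifiers. Coding exons were taken from the transcript with the longest coding sequence, and shared stretches of at least 50 nt and 95% identity were searched with blastn 2.17.0. The script was tested on simulated data. Members and gene lists were chosen with earlier results of these data known. The result of 1 marker list is not reported here. Named were all tested members, and of each pathway list the genes called and the 2 with the highest mean. edgeR 4.0.16 and DESeq2 1.42.0 were run on recovered reads of isolated mitochondria and estimated reads of remaining tissue. The estimate used the same factor for both libraries of remaining tissue. These tests and other filters, scalings and pseudocounts were alternatives.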

Additional observations from a re-analysis of the deposited data

How the results depend on the processing

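Depth limits these results, since most members had few reads in isolated mitochondria, and rounding hid differences of up to 7.05 reads in remaining tissue. With a minimum mean of 5, 11 collagens and 4 pathway genes were higher and 1 pathway gene was lower; Col1a1, Col5a2, Col6a3, Col4a4, Col4a5, Col18a1, Col14a1 and Col16a1 then missed the threshold (adjusted p of 0.0517 to 0.0737 with limma). Col1a1, Col5a2, Col4a4 and Col4a5 also missed it without a filter, and Col1a1, Col5a2 and Col4a5 without trend. Without a filter, 3 collagens (Col19a1, Col20a1 and Col24a1, with no mitochondrial read) and 3 pathway genes were lower. With eBayes without trend or edgeR with the deposited size factors, 1 collagen (Col22a1) was lower, and the latter also called 1 pathway gene lower. Pathway genes called higher were 18 with TMM and 21 with DESeq2, which called 1 lower. Leaving out 1 library, 15 to 22 collagens were higher and 0 to 1 (Col22a1) lower, as were 4 to 22 and 0 to 3 pathway genes, where 296 to 1724 of the 6916 genes tested were higher and 176 to 3198 lower. The lone library is then assumed to vary like those of the other group. Without a library of remaining tissue, Col14a1, Col16a1 and Col23a1 did not pass, nor did Col4a4 without the second. The log2 fold change of Col12a1 ran from -0.63 (without the second mitochondrial library) to 1.86 (without the first). With a minimum mean of 20 in remaining tissue, chosen after seeing the data, 15 collagens were higher.

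Scaled to the total of all genes, 0 collagens were higher and 24 lower, and 0 pathway genes were higher and 32 lower, with a median of all genes of -6.90. The log2 fold changes were then -3.86 for Col1a1, -3.82 for Col1a2, -3.48 for Col3a1, -3.55 for Col5a1, -3.83 for Col5a2, -3.94 for Col5a3, -3.91 for Col11a2, -3.91 for Col4a1, -4.13 for Col4a2, -4.09 for Col4a3, -3.89 for Col4a4, -3.26 for Col4a5, -3.37 for Col15a1, -3.84 for Col18a1, -3.53 for Col6a1, -3.36 for Col6a2, -3.93 for Col6a3, -3.24 for Col6a6, -5.92 for Col12a1, -4.39 for Col14a1, -3.92 for Col16a1, -3.10 for Col23a1 and -3.90 for Col27a1. Pathway genes were at -5.83 (P4hb), -4.39 (Ppib), -3.94 (P3h3), -3.90 (Pcolce), -4.01 (Adamts2), -4.78 (Bmp1), -6.75 (Itgb1), -4.61 (Ddr2), -4.45 (Itga11), -4.22 (Mmp2), -5.42 (Timp2) and -4.69 (Mmp14). Over all genes, 506 were higher and 643 lower as reported (44.0% of calls higher), 38 and 6694 with this scaling (0.564%), 1128 and 172 scaled to protein-coding genes (86.8%), 283 and 399 with a minimum mean of 5, 665 and 3026 without a filter (18%), 438 and 374 without trend, 940 and 1216 with edgeR and the deposited size factors, 1106 and 871 with TMM (55.9%), 1403 and 877 with DESeq2 (61.5%), and 223 and 505 with a minimum in remaining tissue (30.6%). The shares of calls that were higher were 33.9% to 62.7% with 1 library left out.

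Without Col1a1, Col1a2 and Col3a1, the collagen share was 0.124% in remaining tissue and 1.97% in isolated mitochondria. In the same order of groups, the fibrillar share was 16.3% and 17.5%, and the basement membrane share 44.9% and 44.9%. Per kilobase of exon, the collagen shares were 0.119% and 1.02%, the fibrillar shares 45.1% and 47.3%, and the basement membrane shares 31.1% and 29.4%. The replicate numbers are shared by the groups, but nothing in the labels pairs them, and the deviations of same-numbered libraries correlated at 0.141. With the replicate number as a block, 19 collagens were higher and 0 lower (630 and 1144 of all genes); Col23a1 did not pass (adjusted p = 0.0872 with limma) and Col11a2 did (adjusted p = 0.0470 with limma). The cause of these changes was not tested, other than fewer samples or a different set of genes where the setting itself brings them.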
